A study of Mus musculus with 11 samples.

Results

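PU.1 occupancy was examined at 9 genes of the phosphoinositide 3-kinase (PI3K) and Akt signalling pathway, Gab2, Pik3cg, Pik3cd, Pik3c2a, Inpp5d, Akt1, Ppp2r1a, Foxo1 and Foxo3. The genes were taken by name from 22,359 protein-coding genes of the mouse annotation, and each region ran from 5 kb before to 5 kb after the gene. Reads were counted in windows of 500 bp, of which the 9 regions hold 1658. The regions held 29 sites of PU.1 reads above input in at least 1 cell type, of which 12 lay within 2 kb of a transcription start site (TSS) of the gene itself (promoter sites), 15 lay elsewhere in the gene (internal sites) and 2 lay outside it (flank sites).

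In this pathway an activated receptor recruits PI3K, directly or through docking proteins such as Gab2, and PI3K phosphorylates inositol lipids of the plasma membrane. The lipid product brings the kinase Akt to the membrane, where it is activated, and Akt in turn phosphorylates forkhead factors of the Foxo family, which then leave the nucleus. Lipid phosphatases such as SHIP-1, the product of Inpp5d, and protein phosphatases such as PP2A act against it. In erythroid progenitors the pathway carries survival and growth signals from the receptors for erythropoietin and stem cell factor. PU.1, encoded by Sfpi1, is an Ets family transcription factor of myeloid and lymphoid cells that is also present in immature erythroid cells, and it binds purine-rich sequences with a GGAA core.

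Chromatin immunoprecipitation with an antibody against PU.1 (T-21) was followed by sequencing (ChIP-Seq) in 2 cell types from the mouse. MEL cells are a line of leukemic erythroblasts and the cells used (DS19, with clone number 4 in the labels) carry a stable construct in which Gata-1 is joined to ER, and grew under puromycin. ES-EP are erythroid progenitors derived from embryonic stem cells, grown with Epogen, IGF-1, dexamethasone and stem cell factor. Each cell type had 4 PU.1 libraries, labelled A1, A2, B1 and B2. The labels do not define the letter, which is taken here as the chromatin preparation. MEL cells had 1 input library and ES-EP had 2, and no sample had another treatment.

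The PU.1 libraries hold between 2,054,667 and 4,840,424 reads on the nuclear chromosomes. The MEL input holds 4,278,560 and the ES-EP inputs 2,437,650 and 5,051,235. Input reads as counted are thus not directly comparable between the cell types, while the folds are scaled for depth. The preparations differed in strength within each cell type. Taken alone, MEL A gave 5305 windows above input in the whole genome and MEL B 17,035, while ES-EP A gave 12,779 and ES-EP B 3050. Input was uneven too, since the mean input in 500 bp around a TSS was 3.13 times the genome mean in MEL cells and 5.33 and 7.23 times in the ES-EP inputs. For these reasons most values are given below by library or by preparation, with the input reads beside them. The labels do not say whether the preparations came from separate cultures. The p-values of the comparison between cell types (limma) thus measure only the spread between preparations, which may be technical. The tests against input use summed libraries, so their p-values hold counting error and no spread between preparations.

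The clearest internal sites lay in introns of Gab2, Inpp5d, Foxo3 and Pik3cg. Their reference sequence is shown because 4 of these 5 sites passed the test against input in every preparation alone and the fifth in 3 of 4. Each sequence is 200 bases of the forward strand of mm9 (NCBIM37) around the point with the most PU.1 reads, and capitals mark each GAGGAA or its reverse complement TTCCTC.

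Gab2 site 3, chr7:104313026-104313225: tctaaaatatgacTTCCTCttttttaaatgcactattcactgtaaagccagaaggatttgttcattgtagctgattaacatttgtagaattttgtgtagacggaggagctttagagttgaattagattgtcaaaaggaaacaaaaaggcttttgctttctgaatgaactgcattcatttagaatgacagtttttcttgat

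Inpp5d site 4, chr1:89534776-89534975: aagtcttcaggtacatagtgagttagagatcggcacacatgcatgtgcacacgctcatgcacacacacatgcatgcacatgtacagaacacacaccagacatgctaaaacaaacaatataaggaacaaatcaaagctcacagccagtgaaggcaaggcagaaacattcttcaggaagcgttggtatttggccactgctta

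Inpp5d site 5, chr1:89545526-89545725: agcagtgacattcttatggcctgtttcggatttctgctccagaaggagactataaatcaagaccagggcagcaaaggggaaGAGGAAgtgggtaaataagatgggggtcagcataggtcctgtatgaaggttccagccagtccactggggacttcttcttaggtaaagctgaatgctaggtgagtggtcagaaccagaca

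Foxo3 site 4, chr10:41990626-41990825: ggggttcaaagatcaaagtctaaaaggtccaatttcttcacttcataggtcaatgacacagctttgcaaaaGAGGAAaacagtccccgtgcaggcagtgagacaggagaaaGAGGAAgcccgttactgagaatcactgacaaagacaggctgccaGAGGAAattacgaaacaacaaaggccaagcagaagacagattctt

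Pik3cg site 2, chr12:32871526-32871725: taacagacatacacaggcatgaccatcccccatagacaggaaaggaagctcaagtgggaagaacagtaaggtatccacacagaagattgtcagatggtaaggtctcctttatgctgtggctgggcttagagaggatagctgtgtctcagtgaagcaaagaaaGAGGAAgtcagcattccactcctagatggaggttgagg

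The Foxo3 sequence holds 3 copies of GAGGAA, the one nearest to the summit 14 bp from it. The Inpp5d site 5 sequence holds 1 copy 16 bp from the summit. The Pik3cg sequence holds 1 copy at 65 bp and the Gab2 sequence 1 copy at 84 bp. Inpp5d site 4 holds no GAGGAA, although it holds the shorter core GGAA. A site counted below as without GAGGAA can thus still hold the core. Counting both strands, GAGGAA occurred in 34.7% of the 200 bp windows around all 23,995 sites of the genome, in 19.2% of the same length around TSSs and in 17.8% of windows 10 kb from the sites. Of the 29 sites 9 held it, 8 of 15 internal sites and 1 of 12 promoter sites. The longer word GAGGAAG, which contains the first, occurred in 8 of the 29 sites, in 23.8% of all sites and in 9.78% of TSS windows. Base composition differed between the same groups of sites in its median and overlapped in its range, with a G+C content of 44.5% (median) at internal sites (32.0 to 66.5%) and 71.0% at promoter sites (45.0 to 83.5%).

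Against its own input, PU.1 was above background in 30 of the 1658 windows in MEL cells and in 24 in ES-EP (one-sided Poisson test, Benjamini-Hochberg over all windows of the genome). Among windows of all protein-coding genes with their flanks, 0.735% passed for MEL cells and 0.46% for ES-EP. With an exact binomial test against the window's input alone, 4 windows of the 9 genes passed for MEL cells and 14 for ES-EP. The order of the cell types turned over the whole genome too, with 2445 and 4084 windows. At the TSS windows of the 9 genes it was kept, with 14 for MEL cells and 11 for ES-EP, as at all TSS windows, with 4746 and 3870. At the annotated starts, 19 of 32 TSS windows of the 9 genes passed for MEL cells and 17 for ES-EP, where 35.5% and 19.4% of all TSS windows did. Windows of neighbouring starts overlap and share reads. By gene, 8 of the 9 had at least 1 TSS window above input for MEL cells and 7 for ES-EP, 6 of them for both. Among all protein-coding genes these shares were 41.4% and 23.4%. A gene with more starts has more chances of a call, and the shares are not corrected for this. The 9 genes hold 32 starts, where all 22,359 genes hold 46,015. Ppp2r1a was the gene without a call in MEL cells, and Foxo1 and Gab2 were those without one in ES-EP.

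Of the 29 sites, 14 passed in both cell types, 9 in MEL cells and not in ES-EP, and 6 in ES-EP and not in MEL cells. Of all 23,995 sites of the genome, 31.7%, 44.4% and 23.8% did so in the same order. A site passed in a cell type when any of its joined windows did, so the windows can differ between the cell types. Gab2 site 6, of 2 windows, counts in both, with a fold of 1.35 (0.435 to 5.55) for MEL cells in its counted 500 bp. In each of the 4 preparations alone 7 sites passed, where 7.02% of all sites of the genome did. These were Inpp5d sites 1 and 4, Pik3cg sites 1 and 2, Pik3cd site 1, Gab2 site 3 and Foxo3 site 4. With ES-EP A left out, the called TSS windows fell to 9 and the called windows to 11 in ES-EP, while those of the whole genome fell from 8944 to 1687 and from 14,612 to 3050. With MEL B left out, the called windows in MEL cells fell to 10, and in the genome from 21,685 to 5305.

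**Figure D1:**
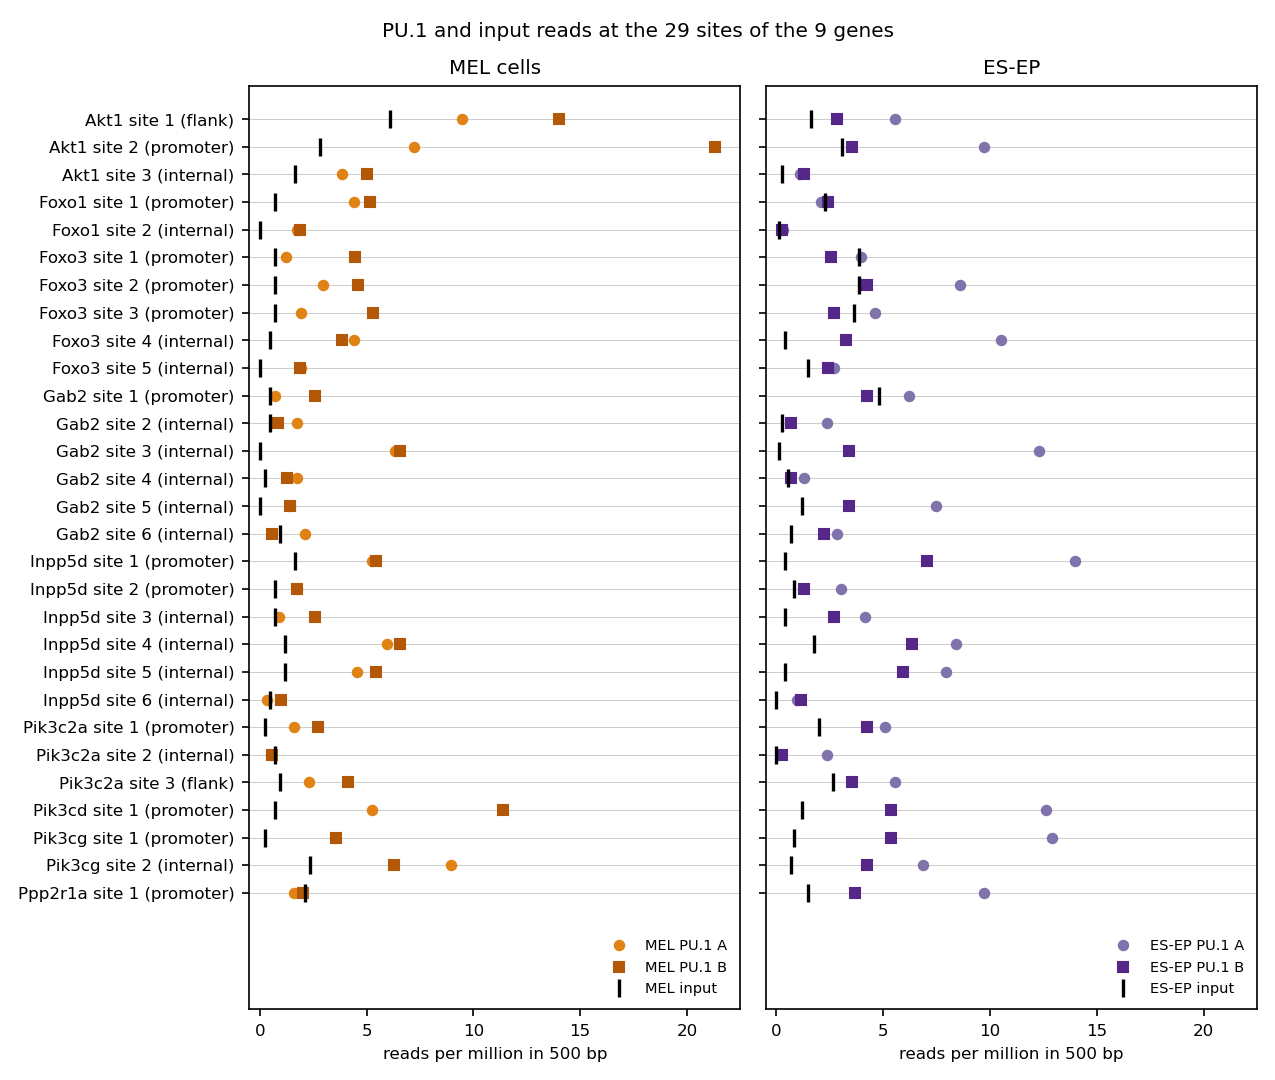
PU.1 reads scaled to 1,000,000 per preparation in 500 bp (horizontal axis) at the 29 sites, with MEL cells on the left and ES-EP on the right; circles are preparation A, squares preparation B and black bars the input of the same cell type. PU.1 stood clear of input in both cell types at Gab2 site 3, Inpp5d sites 1, 4 and 5, Foxo3 site 4, Pik3cd site 1 and both Pik3cg sites, while at Foxo1 site 1 the ES-EP preparations lay on their input.

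Gab2 encodes a docking protein that links cytokine receptors to PI3K. It is the longest of the 9 genes, at 227 kb on the plus strand of chromosome 7 (104,230,261 to 104,457,450), and carried 6 sites. Site 3 lay 82,865 bp from its 5′ end, in an intron. Its PU.1 reads in libraries A1, A2, B1 and B2 were 19, 17, 16 and 30 in MEL cells against 34, 43, 4 and 20 in ES-EP. The MEL input had 0 reads there and the ES-EP inputs 1 and 0. Every library was above its input, and preparation B was low in ES-EP. In MEL cells the fold over input was at least 9.22 (taking 3 reads as the most that a count of 0 allows), and in ES-EP it was 56.5 (95% exact interval 9.92 to 2250, from 1 input read). Intervals and floors cover counting error only, and not the choice of a site by its own PU.1 reads.

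At the Gab2 promoter (site 1, 35 bp before the TSS) the picture depended on the input. PU.1 reads in the 4 libraries were 0, 4, 5 and 13 in MEL cells against 16, 23, 2 and 28 in ES-EP, with 2 reads in the MEL input and 8 and 28 in the ES-EP inputs. The fold over input was 3.71 (0.912 to 32.5) in MEL cells and 1.07 (0.707 to 1.65) in ES-EP, so the larger number of reads in ES-EP was matched by the input there. Site 5, in an intron 102,440 bp from the 5′ end, had 8 and 10 PU.1 reads in preparations A and B of MEL cells, against 47 and 24 in ES-EP. Its input reads were 0 in MEL cells against 9 in ES-EP, giving folds of at least 2.02 and of 4.42 (2.20 to 10.1). The remaining Gab2 sites 2, 4 and 6 had at most 18 PU.1 reads in any preparation, and none of them passed in more than 2 of the 4 preparations.

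Pik3cg encodes p110γ, the catalytic subunit of PI3K that answers to G protein-coupled receptors and is abundant in blood cells. It spans 35.2 kb on the minus strand of chromosome 12 (32,858,338 to 32,893,524). At its promoter (site 1) the 4 libraries had 5, 15, 14 and 11 reads in MEL cells against 35, 46, 10 and 28 in ES-EP, with 1 read in the MEL input and 3 in each ES-EP input. Both cell types were above input in both preparations, with folds of 15.2 (2.59 to 613) and 11.1 (4.95 to 30.9). The intron site 2, 21,898 bp from the 5′ end, had 17, 34, 20 and 24 reads in MEL cells against 12, 31, 10 and 20 in ES-EP. Input there was 10 reads in MEL cells against 1 and 4 in ES-EP, and the folds were 3.20 (1.67 to 6.90) and 8.17 (3.35 to 25.9). The order of the cell types by fold was thus the reverse of that by reads, and the intervals overlapped.

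Pik3cd encodes p110δ, the catalytic subunit that works downstream of cytokine and antigen receptors in leukocytes. The gene lies on the minus strand of chromosome 4 (149,023,277 to 149,076,680) with 10 annotated starts. PU.1 was above input at a cluster of 4 starts that lies 3863 to 4019 bp inside the gene, whose windows all passed in every preparation, whereas the outermost start had 1 PU.1 read in each MEL preparation and 2 in each of ES-EP. A start 26,527 bp inside the gene passed too in MEL cells, with 9 and 4 reads in the preparations over 1 input read (fold 4.38, 0.659 to 186), and not in ES-EP. Site 1, at this cluster, had 11, 19, 30 and 50 reads in MEL cells against 27, 52, 6 and 32 in ES-EP, with 3 input reads from MEL cells, and 0 and 9 from ES-EP. The folds were 12.4 (4.12 to 60.9) and 7.28 (3.70 to 16.3). The library ES-EP B1 had the fewest reads of the 8.

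Pik3c2a encodes a class II PI3K, which makes other lipid products than the class I enzymes above. It occupies 106.0 kb of the minus strand of chromosome 7 (123,480,790 to 123,586,972). Its promoter (site 1) had 5, 4, 5 and 14 reads in MEL cells over 1 input read, and 7, 25, 4 and 26 in ES-EP over 2 and 13 input reads. The folds were 9.44 (1.56 to 386) and 2.31 (1.30 to 4.38), and 3 of the 4 preparations passed. Site 3 lay beyond the 3′ end of Pik3c2a, 71 bp inside the start of Rps13, a ribosomal protein gene. Internal site 2 rested on library ES-EP A1, which held 11 of its 17 ES-EP reads.

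Inpp5d encodes SHIP-1, the lipid phosphatase of blood cells that removes a phosphate from the PI3K product. It lies on the plus strand of chromosome 1 (89,516,887 to 89,617,082) and had 6 sites, 2 of them at promoters. Site 1, at the first starts, had 13, 17, 16 and 22 reads in MEL cells against 25, 63, 12 and 38 in ES-EP. The MEL input had 7 reads and the ES-EP inputs 0 and 3, so the fold was 3.28 (1.51 to 8.46) in MEL cells and 25.7 (8.63 to 126) in ES-EP. All 4 preparations passed, and by preparation the folds were 3.22 and 3.32 in MEL cells against 35.0 (11.6 to 173) and 17.6 (5.68 to 88.2) in ES-EP, from 3 input reads. These intervals rest on counts and on the window taken. In the windows at the first 3 starts, which cover nearly the same bases, the intervals of the cell types overlapped, at the second of them 1.57 to 10.2 and 8.56 to 125. In limma the log2 fold change of PU.1 reads at site 1 was -0.89 ± 0.73 (adjusted p = 0.509).

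2 further sites of Inpp5d lay in introns, 17,989 and 28,739 bp from the 5′ end. Site 4 had 10, 24, 15 and 31 reads in MEL cells against 25, 28, 19 and 26 in ES-EP, with folds of 5.40 (2.22 to 17.1) and 4.22 (2.36 to 8.21). Site 5 had 10, 16, 24 and 14 reads in MEL cells against 20, 30, 10 and 32 in ES-EP, with folds of 4.32 (1.76 to 13.7) and 17.2 (5.69 to 84.8). Both sites were above input in both cell types, and the MEL input was 5 reads at each. Sites 2, 3 and 6 passed in ES-EP and not in MEL cells, with 2 to 18 PU.1 reads in a MEL preparation and 6 to 26 in an ES-EP preparation. The folds of site 2 were nearly equal, 2.47 (0.743 to 12.9) for MEL cells and 2.61 (1.06 to 7.71) for ES-EP. A TSS window overlapping it, 1362 bp from the 5′ end, passed in both cell types, with folds of 2.25 (0.667 to 11.8) and 2.52 (1.02 to 7.46).

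**Figure D2:**
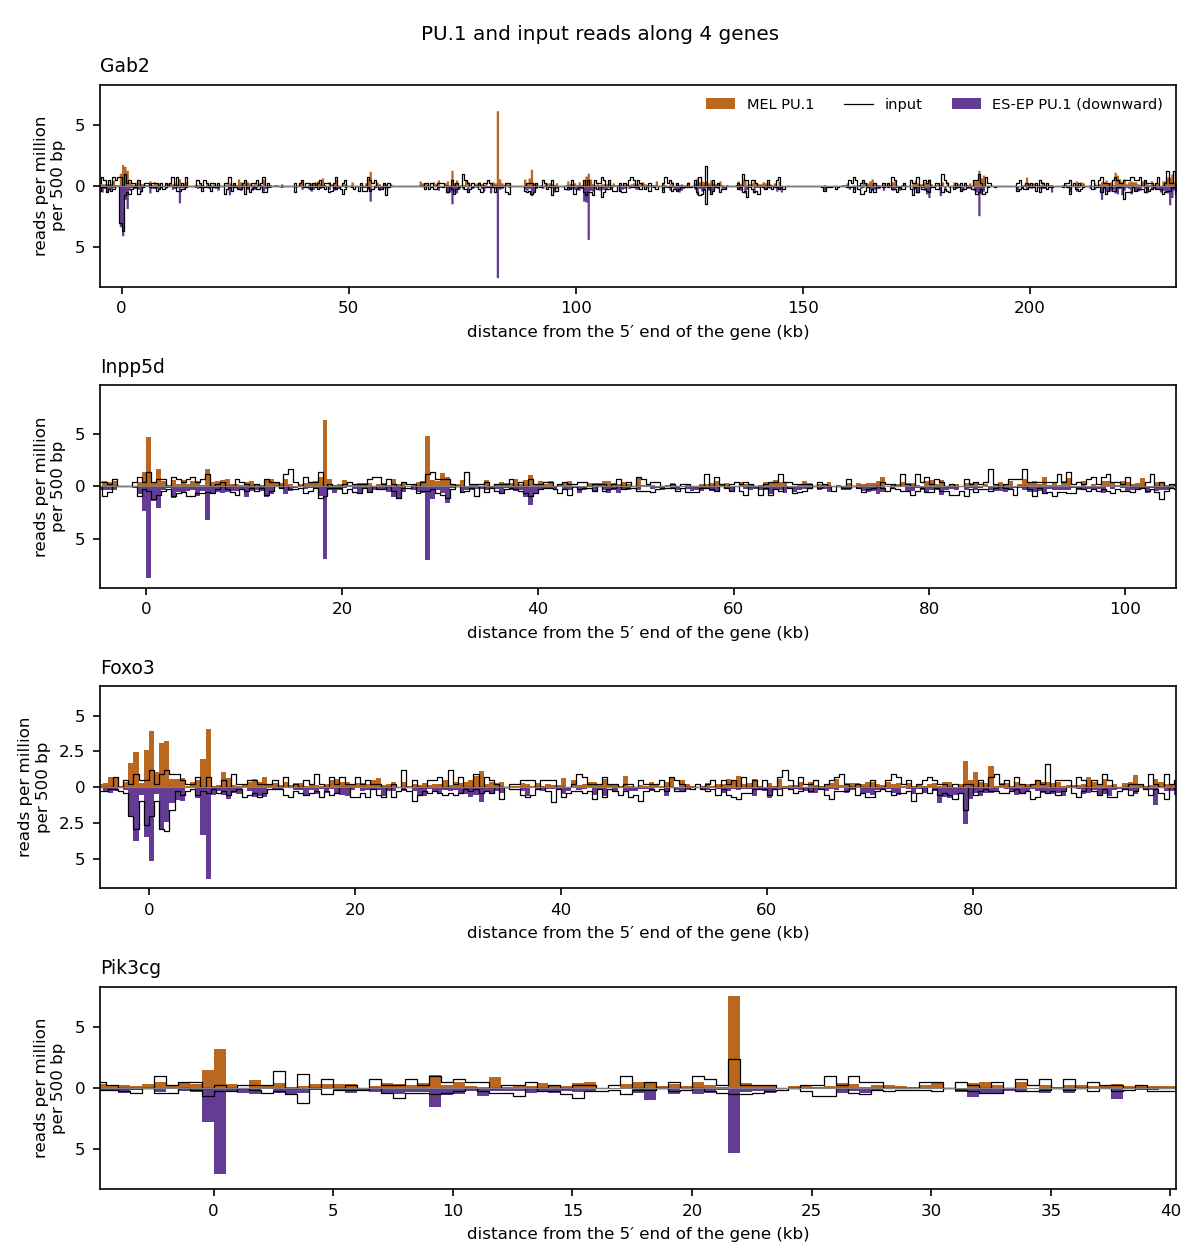
PU.1 reads scaled to 1,000,000 in each 500 bp along Gab2, Inpp5d, Foxo3 and Pik3cg, by distance from the 5′ end of the gene in kb, with MEL cells drawn upward, ES-EP drawn downward and the input of each cell type as a black line; libraries of a cell type are summed. Intron peaks of 1 or 2 windows lie at the same distance in both cell types in all 4 genes, although in MEL cells the Foxo3 peak (4.10) was close to the highest window at its start (3.94), while at the starts of Gab2 and Foxo3 the ES-EP input line rises with the PU.1 reads.

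Ppp2r1a encodes the scaffold subunit of the phosphatase PP2A, on the plus strand of chromosome 17 (21,082,275 to 21,102,880). Its single site lay at the start and had 6, 3, 3 and 11 reads in MEL cells against 16, 45, 2 and 24 in ES-EP. MEL cells were at the level of their input, which had 9 reads (fold 0.862, 0.384 to 2.12), and ES-EP were above theirs, which had 2 and 9 (fold 4.43, 2.36 to 9.19). Preparation ES-EP A alone passed, and ES-EP B alone did not.

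Foxo1 and Foxo3 encode the forkhead factors that Akt holds out of the nucleus. The Foxo1 promoter (site 1, chromosome 3, plus strand, gene 52,072,259 to 52,154,031) had 8, 17, 13 and 23 reads in MEL cells over 3 input reads and 5, 8, 6 and 11 in ES-EP over 5 and 12. The fold was 6.86 (2.24 to 34.2) in MEL cells, with both preparations above input, and 0.988 (0.527 to 1.91) in ES-EP. Site 2, in an intron 40,542 bp from the start, had 23 PU.1 reads in MEL cells, 10 in A and 13 in B, and 4 in ES-EP. It passed in the sum of the MEL libraries and in neither preparation alone, and its fold there was at least 2.59.

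Foxo3 (chromosome 10, minus strand, 41,901,647 to 41,996,561) had its strongest site in an intron, 5835 bp from the 5′ end. Site 4 had 11, 14, 8 and 19 reads in MEL cells against 24, 42, 6 and 17 in ES-EP, with 2 input reads from MEL cells, and 2 and 1 from ES-EP. The folds were 8.77 (2.31 to 74.3) and 16.6 (5.50 to 82.0), and all 4 preparations passed. The 3 promoter sites of Foxo3 were above input in MEL cells, with folds of 4.27 (1.36 to 21.6), 5.51 (1.78 to 27.6) and 5.40 (1.74 to 27.1) over 3 input reads at each. All 3 passed in preparation MEL B alone, with folds of 6.33 (1.97 to 32.3), 6.53 (2.04 to 33.3) and 7.55 (2.39 to 38.3), and none in MEL A alone, with folds of 1.75 (0.400 to 10.5), 4.26 (1.23 to 22.7) and 2.75 (0.727 to 15.4). The 3 TSS windows of Foxo3, which overlap one another and site 2, passed in MEL A alone too, with folds of 3.75 to 6.38 there. In ES-EP the promoter sites held 27 to 29 input reads each and the folds were 0.830, 1.62 and 0.995, and site 2 was the one that passed. Promoter and intron thus differed in ES-EP, where input was low at the intron site. Site 5, in a coding exon 79,210 bp from the 5′ end, passed in MEL cells and not in ES-EP, with 11 and 13 reads in the 2 preparations over 0 input reads, while ES-EP had 17 in each over 11 input reads.

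Akt1 encodes the kinase that gives the pathway its name, and its region held 3 sites on the minus strand of chromosome 12 (113,892,032 to 113,913,095). The promoter (site 2, 71 bp before a TSS) had 21, 20, 48 and 101 reads in MEL cells against 14, 47, 4 and 21 in ES-EP. Input there was 12 reads in MEL cells against 6 and 17 in ES-EP. The fold was 5.34 (2.99 to 10.5) in MEL cells, 2.57 in preparation A and 7.60 in B, and 2.09 (1.31 to 3.48) in ES-EP, 3.16 in A and 1.15 in B. The site passed in preparation B alone in MEL cells and in preparation A alone in ES-EP, the stronger of each cell type. The TSS window over nearly the same bases (start 3 of Akt1) passed in both MEL preparations and in ES-EP A. Its folds were 3.75 (1.81 to 8.74) in MEL A and 9.73 (4.98 to 21.7) in MEL B.

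The amplicon that the study used for Akt1 lies in this promoter (chr12:113911969-113912143, mm9), and the fold in the 500 bp around it was 14.3 in MEL cells, over 4 input reads, and 1.90 in ES-EP, over 25. Its PU.1 reads were 40 and 130 in preparations A and B of MEL cells, against 57 and 28 in ES-EP, whose inputs had 6 and 19. At the upstream element of Sfpi1, a known PU.1 site that serves as a reference (chr2:90923214-90923299), the folds were 10.0 and 9.93. There the preparations had 23 and 96 reads in MEL cells against 33 and 38 in ES-EP, over 4 input reads in each cell type. Site 3 of Akt1 lay in an intron 6594 bp from the 5′ end. It had 9, 13, 5 and 30 reads in MEL cells against 1, 6, 3 and 6 in ES-EP. Input there was 7 reads in MEL cells against 1 in each ES-EP input. The folds were 2.75 (1.25 to 7.14) and 4.48 (1.05 to 40.1). The site passed in MEL cells, in preparation B alone but not in A, and it did not pass in ES-EP. Site 1 lay 4556 bp upstream of Akt1 and 275 bp before the start of Zbtb42, a zinc finger gene, so that it is at the promoter of the neighbouring gene. It had 54 and 98 reads in the MEL preparations over 26 input reads and 35 and 20 in ES-EP over 2 and 10.

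Input itself was high at Akt1 in MEL cells. In the 1 Mb around the start of Akt1 the MEL input had 12,655 reads and the ES-EP inputs together 4842, which after scaling for depth is a ratio of 4.57 (95% exact interval 4.43 to 4.73). Against each ES-EP input alone the ratio was 5.08 and 4.36. PU.1 libraries of MEL cells also had more reads over this 1 Mb than those of ES-EP, by a ratio of 3.04 in preparations A and 4.21 in B. In bins of 100 kb the ratio exceeded 2.5 over 1.4 Mb without a break (chromosome 12, 113,200,001 to 114,600,000), with a median of 4.43 and a range of 3.42 to 7.44. The rest of chromosome 12 had a median of 0.895, and of 2531 bins of 1 Mb on the autosomes and the X chromosome 1 had a ratio as high as that holding Akt1 or higher, namely that bin itself. Pik3cg, 81.0 Mb away on the same chromosome, had a log2 input ratio of -0.04 at its promoter. For the other genes the log2 input ratio in 1 Mb around a site was between -0.25 (Ppp2r1a) and 0.28 (Foxo1).

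**Figure D3:**
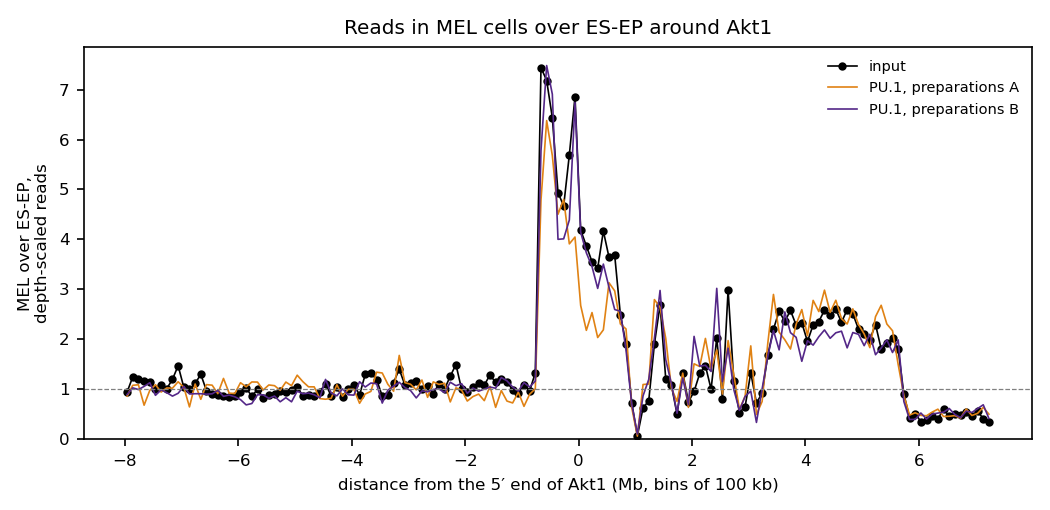
Ratio of depth-scaled reads in MEL cells to those in ES-EP in bins of 100 kb (vertical axis), by distance from the 5′ end of Akt1 in Mb, for input (black) and for PU.1 preparations A (orange) and B (purple); the dashed line is a ratio of 1. Input and PU.1 rise together over a block of 1.4 Mb that holds Akt1, with input between 3.42 and 7.44.

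The question whether occupancy differed between the MEL cells and the ES-EP used here was tested over the 2 preparations of each cell type with limma (voom, two-sided, Benjamini-Hochberg over all sites of the genome). Leukemic state, cell origin, construct and medium differ together between them and cannot be told apart. None of the 29 sites passed, and the smallest adjusted p in limma was 0.0988. In the genome 2.25% of sites were higher in MEL cells and 1.02% higher in ES-EP. At an unadjusted p under 0.05, 6 of the 29 sites and 4420 of all 23,995 differed. 7 of the 29 sites had a positive log2 fold change of MEL over ES-EP and 22 a negative one, with a median of -0.44, where the median of all sites was -0.18. These log2 fold changes compare PU.1 reads scaled for depth and not folds over input.

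The 6 sites were Akt1 sites 1 and 3 and Foxo1 site 2, with more PU.1 reads in MEL cells, and Gab2 sites 1 and 5 and Ppp2r1a site 1, with more in ES-EP. By limma the log2 fold change was 1.51 ± 0.72 (SE) at Akt1 site 1 (adjusted p = 0.234), 1.82 ± 0.66 at Akt1 site 3 (0.0988) and 2.34 ± 0.93 at Foxo1 site 2 (0.136). It was -1.82 ± 0.67 at Gab2 site 1 (0.102), -1.78 ± 0.67 at Gab2 site 5 (0.108) and -1.71 ± 0.67 at Ppp2r1a site 1 (0.129). At the Akt1 promoter it was 1.05 ± 0.74 (limma, adjusted p = 0.444).

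At Akt1 the direction changed with the input. When the input in 1 Mb around each site was taken as an offset, the log2 fold change turned to -0.62 at site 1, -1.09 at site 2 and -0.33 at site 3, and no site of the 9 genes passed. At Foxo1 site 2, Gab2 sites 1 and 5 and Ppp2r1a site 1 it stayed at 2.06, -1.69, -1.67 and -1.46. That offset is an average over 1 Mb and leaves out the local input. At Gab2 site 1 the local input was 2 reads for MEL cells against 36 for ES-EP. By fold over it MEL cells were the higher there (3.71 against 1.07). At Akt1 site 2 they were the higher too (5.34 against 2.09), opposite to the sign with the offset. At Akt1 sites 1 and 3 ES-EP was the higher (2.57 against 1.97 and 4.48 against 2.75), although site 3 was not called in ES-EP. The intervals of the cell types overlapped at each of these sites. At start 3 of Akt1, over nearly the same bases as site 2, they did not (7.05, 3.63 to 15.6, against 1.90, 1.21 to 3.10). With median-ratio scaling in place of total reads, which raised the log2 fold change by a median of 0.17 over all sites, 8 of the 29 sites passed, 5 of them higher in MEL cells. That scaling also called more sites in the genome, 3201 in place of 784, with 8.65% of all sites higher in MEL cells and 4.69% higher in ES-EP. Of these 5, 3 were the Akt1 sites and 2 those of Foxo1, and the 3 higher in ES-EP were Gab2 sites 1 and 5 and Ppp2r1a site 1.

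**Figure D4:**
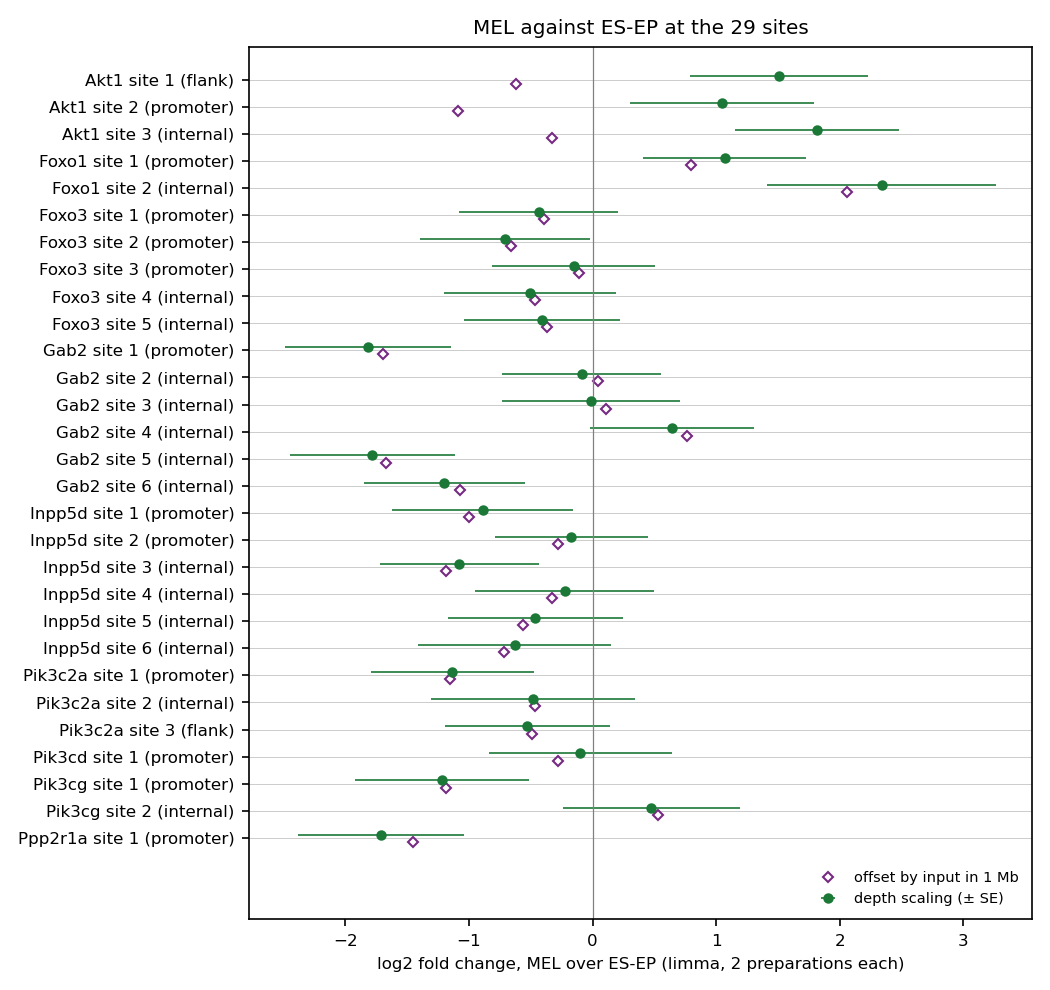
Log2 fold change of MEL over ES-EP at the 29 sites; circles with bars are the limma estimate ± SE over 2 preparations of each cell type with scaling by total reads, and diamonds the same with the input in 1 Mb around the site as an offset. The 3 Akt1 sites cross 0 between these scalings, and the diamonds lie beside the circles at the other genes.

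At the TSS windows, none of the 32 of the 9 genes differed between the cell types (limma, smallest adjusted p = 0.493). In the whole genome 0.0113% of TSS windows were higher in MEL cells and 0.009% higher in ES-EP. At an unadjusted p under 0.05, 5 of the 32 and 2821 of all 44,423 differed. Of the 5, starts 2 and 4 of Akt1 had more reads in MEL cells (log2 fold changes 1.76 and 1.86), and with the input offset both turned negative (-0.38 and -0.29). Over the local input, MEL cells stayed the higher at start 2 (fold 1.9 against 0.763 in ES-EP), which passed against input in MEL cells only. At start 4 of Akt1 ES-EP was the higher (2.24 against 0.843 in MEL cells), from 1 and 3 PU.1 reads over 1 input read. Start 4 passed against input in neither cell type. The intervals of the cell types overlapped at both starts. The start of Gab2 had 2 and 18 reads in the MEL preparations and 37 and 28 in ES-EP, over 1 and 34 input reads, and the folds over input were 6.75 (1.08 to 280) and 1.07 (0.696 to 1.67). The start of Ppp2r1a had 8 and 13 reads against 60 and 26, over 9 and 11 input reads, and the last of the 5, start 6 of Inpp5d, had 1 and 0 against 3 and 4. With median-ratio scaling starts 2 and 3 of Akt1 passed.

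Which starts passed against input changed with the input used. With the MEL input in place of their own, the ES-EP libraries were above input at 20 of the 32 TSS windows and in all 9 genes, Foxo1 and Gab2 included. Of all TSS windows 38.5% then passed for ES-EP. With the ES-EP input in place of their own, the MEL libraries were above it at 13 windows and in 4 genes, Akt1, Inpp5d, Pik3cd and Pik3cg, where 5.85% of all TSS windows did. At Akt1 the MEL libraries held 3.04 to 4.21 times the ES-EP reads over the whole 1 Mb, and start 1 of Akt1, whose fold over its own input was 0.991 (0.552 to 1.87), passed only against the ES-EP input. At the Foxo1 start the ES-EP inputs held 4 and 19 reads and at the Gab2 start 8 and 26, where the MEL input held 1 at each.

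Among 65 other genes of the pathway, 44 had a TSS window above input for MEL cells and 28 for ES-EP, 25 of them for both. These are 67.7% and 43.1% of the list, where 41.4% and 23.4% of all genes had one, again with no correction for the number of starts of a gene. All 4 receptors upstream of PI3K on the list (Kit, Epor, Igf1r and Insr) lacked a called start in ES-EP, as most genes of the genome did, and 3 of them had one in MEL cells. Sites in these genes or within 5 kb of them passed in ES-EP at 3 of the 4, with 4 at Igf1r, 1 at Kit and 1 at Epor. The distances of these sites from a start were not examined. Of 5 lipid phosphatases 4 had a called start in each cell type, 3 of them in both. Of 7 regulatory or adaptor subunits of PI3K, 5 had one in MEL cells against 3 in ES-EP, and of 10 genes of the TOR branch, 5 and 2. In the same order, 6 and 2 of 7 genes of Akt and its kinases had one, and 2 and 1 of 4 catalytic PI3K genes. Of 9 upstream adaptors 5 and 4 had one, of 11 Akt substrates 8 and 7, and of 8 protein phosphatases 6 and 5. Differences between these groups were not tested. Sites lay in or near 59 of the 65 genes, 136 in all. The share of all protein-coding genes with a site was not counted, and a longer gene has more windows in which one can be called.

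4 of these 136 sites passed between the cell types in limma, and they lay at 4 genes. A site enters this test through a call against input in either cell type, made from the same PU.1 reads. Those of Pik3ap1 and Rheb were called in MEL cells only and that of Pik3ca in ES-EP only. Their limma results are thus not independent of how they were chosen. At TSS windows, which the annotation fixes, 0 passed in these genes and 9 of 44,423 in the genome. In the genome 784 of 23,995 sites passed. A site in an intron of Pik3ap1, an adaptor that binds PI3K in B cells and macrophages, had 31 and 59 reads in the MEL preparations and 9 and 4 in those of ES-EP, a log2 fold change of 2.83 ± 0.71 (adjusted p = 0.0101, limma). An intron site of Rheb, the small GTPase that activates mTOR, had 20 and 19 reads in MEL cells against 4 and 2 in ES-EP (2.69 ± 0.84, 0.0464), in a region where the log2 input ratio was 0.80. With the input as an offset the Rheb site no longer passed (1.89, adjusted p = 0.236 in limma). It did not pass either with sites of at least 20 reads (limma, adjusted p = 0.0771), with counting windows of 200 bp (0.339) or with each library as a sample (0.0664).

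The remaining sites were higher in ES-EP. At the start of Gab1, a docking protein related to Gab2, the preparations had 9 and 13 reads in MEL cells against 95 and 65 in ES-EP (-2.73 ± 0.70, adjusted p = 0.0127 in limma), over 2 and 43 input reads, and with the input offset it did not pass (-2.08, 0.0894). By fold over the local input the order of the cell types at Gab1 turned, with 3.71 (0.912 to 32.5) for MEL cells and 2.08 (1.48 to 2.99) for ES-EP, and the intervals overlapped. At Pik3ca, which encodes p110α, an intron site had 0 reads in both MEL preparations and 10 and 8 in ES-EP (-4.15 ± 1.09, 0.0138). With MEL cells at 0 reads this estimate depended on the scale, and on log2 counts per 1,000,000 reads it was -1.88 (limma, adjusted p = 0.0179). The MEL input had 0 reads there as well, so MEL cells have no fold over input. The ES-EP fold over 3 input reads was 3.36 (0.980 to 17.8), and with 18 reads the site is not tested where at least 20 are asked for. Without MEL A, without MEL B or without ES-EP A none of the 4 passed, and without ES-EP B only Gab1 did. The adjusted p of limma without MEL A was 0.213 at Pik3ap1, 0.270 at Rheb, 0.230 at Gab1 and 0.340 at Pik3ca.

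By the higher of the cell types, which was ES-EP at each, the most depth-scaled PU.1 reads in a TSS window of the list were at Ikbkb, Ppp2r5c and Ppp2ca. The start of Ikbkb, a catalytic subunit of the IκB kinase, had 91 and 227 reads in the MEL preparations and 422 and 225 in ES-EP, with folds of 35.8 (12.1 to 174) and 32.9 (18.3 to 66.3). Ppp2r5c and Ppp2ca, a regulatory and the catalytic subunit of PP2A, had 15 and 68 reads and 23 and 79 reads in the MEL preparations, with folds of 9.33 (3.08 to 46.2) and 11.5 (3.81 to 56.5) there, and of 10.7 and 4.29 in ES-EP. By PU.1 reads, no start of the 9 genes reached Ikbkb in either cell type. By fold over input, the first start of Inpp5d in ES-EP was at 37.8 (10.3 to 315).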

How the data were processed

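The authors sequenced immunoprecipitated and input DNA on an Illumina GAII, aligned reads of 27 bp (28 bp in the MEL input) with ELAND to mm9, and kept unique alignments with up to 2 mismatches; the version of ELAND is not given in the sources used here. Each line of the deposited files is 1 aligned read with no other measured value, so all counts were made from these lines. Read 5′ ends were moved by 70 bp (MEL cells) or 65 bp (ES-EP) towards the fragment centre. Genes came from GENCODE on NCBIM37, which is mm9.

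A window of 500 bp was called when its reads exceeded a Poisson mean, for which the highest of 5 estimates was taken: the genome mean, and the input scaled for depth at the window itself and over 1, 5 and 10 kb. Repeated positions counted once per library for calling and in full elsewhere. The threshold kept both the Benjamini-Hochberg rate and the rate after exchanging ChIP and input below 0.05. Adjoining called windows were joined into sites, counted in 500 bp around the highest point. Folds over input are ratios of depth-scaled reads with exact 95% conditional intervals. Sites were called and centred by the same PU.1 reads, so their folds tend to be too high, which the intervals do not cover. TSS windows were fixed by the annotation. The labels do not define the letter of a library (A or B), which was taken as its chromatin preparation, the replicate here, and the 2 libraries of a preparation were summed. MEL cells and ES-EP were compared over preparations with limma 3.58.1 (voom) in R 4.3.3. Rows without a read in any preparation were left out of each fit, a choice made after the step was tested on simulated data, in which such rows hid the changes. Other steps used Python 3.11.15. Libraries of a preparation shared 1.53 to 4.19% of read positions on the plus strand of chromosome 19, so none was a copy of another. Alternatives were other windows, repeated reads kept, no shift, an exact binomial test, each ES-EP input alone, other scalings, counting windows and filters, a replicate block, and leaving out each preparation. The 9 genes, the list of 65 and the tests were chosen with earlier results of these data known. All 9 genes are named, with those of the list that passed limma or had the most reads at a start.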

Additional observations from a re-analysis of the deposited data

Results flagged for a closer look

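Reads scaled to 1,000,000 in the 4 libraries of each cell type were compared at the 29 sites, which makes 58 groups of 4 libraries. Chance would put the highest or lowest library this far from the others in about 1 of 20 groups. At 1 site a library stood apart. At Foxo3 site 1, before the start of Foxo3, ES-EP library A2 had 4.83 reads on this scale (19 reads as counted) and the other 3 libraries 2.48 to 2.66. This site was not above input in ES-EP.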

How the results depend on the processing

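With an exact binomial test against the window's input alone, the called windows of the 9 genes were 4 (MEL cells) and 14 (ES-EP), and the called TSS windows in ES-EP were 11. In the genome it called 2445 windows for MEL cells, 4084 for ES-EP and 3870 TSS windows for ES-EP, against 21,685, 14,612 and 8944. With 1 preparation left out, called windows ranged from 10 to 31 for MEL cells, from 11 to 22 for ES-EP, and TSS windows in ES-EP from 9 to 17 and in MEL cells from 16 to 18. With median-ratio scaling 8 sites and 2 TSS windows of the 9 genes passed limma in place of 0, where 3201 of 23,995 sites and 342 of 44,423 TSS windows of the genome did. The offset by input turned the log2 fold changes of the Akt1 sites to -0.62, -1.09 and -0.33. By fold over the local input MEL cells stayed the higher at Akt1 site 2 (5.34 against 2.09), and ES-EP was the higher at sites 1 and 3. The intervals of the cell types overlapped at each of these sites, and site 3 was not called in ES-EP. Using the other cell type's input was an alternative chosen after seeing the data. The letters A and B do not pair the preparations, whose deviations correlated with r = 0.0176 over sites and -0.0775 over TSS windows, and with the letter as a block 0 sites and 0 TSS windows of the 9 genes passed. Over all sites the block gave 272 calls in place of 784, and its adjusted p in limma was 0.0583 at Pik3ap1, 0.0910 at Rheb, 0.0889 at Gab1 and 0.0208 at Pik3ca. Leaving out MEL A gave 0 calls over all sites and leaving out MEL B 1. Depth limits the folds most where the input has 0 to 3 reads.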
